A study of Caenorhabditis elegans with 2 samples.

Results

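The C. elegans protein ZTF-18, named for its zinc fingers, was mapped on DNA by chromatin immunoprecipitation and sequencing (ChIP-seq). The regions described here are its weaker peaks inside introns of protein-coding genes, away from annotated promoters and tRNA genes. They numbered 296 of the 2449 nuclear peaks in the thresholded list, which is 12.1% (exact 95% interval 10.8 to 13.4%). They were chosen by position and by the pooled signal: a signal below 720, a summit inside a protein-coding gene body but in no exon, not within 1000 bp before or 200 bp after a gene's 5′ end, and over 150 bp from any tRNA gene. Positions and signals of this kind are therefore a description and were given no test. Genome positions are on ce11 (WBcel235), counted from 1.

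The chromatin came from whole young adult hermaphrodites of strain OP496, 64 hours after bleached cultures had been synchronized as starved L1 larvae. All animals carried a transgene in which ZTF-18 bears a GFP-FLAG tag at its C-terminal end, and an antibody to GFP was used for the precipitation. Both samples, numbered by the labels as biological replicates 1 and 2, belong to 1 group, and no untagged or control sample was analysed here. Signal from whole animals does not tell which cells were occupied, and the promoter that drives the transgene is not given in the sources used here. Read depth is unknown from these files.

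Introns hold more than sequence to be spliced out. They can carry enhancers and second promoters of the host gene, and in C. elegans many genes for small nucleolar RNAs (snoRNAs, guides for chemical modification of ribosomal and other RNAs) and small nuclear RNAs (snRNAs, parts of the splicing machinery) lie within them. Some small RNA genes have promoters of their own. Those of tRNA genes, read by RNA polymerase III, lie inside the transcribed part and are called box A and box B, whereas those of snRNA genes lie upstream of the 5′ end.

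Sequences that recur in the results are shown first. Among members for which sequence is shown, the 6 strongest that hold the leading 6-base word of the summits, CGTCTC or its reverse complement GAGACG, are printed on the plus strand, 50 bp to each side of the summit, with the word in capitals.
ppat-1 intron 1, chrIII:4689739-4689839: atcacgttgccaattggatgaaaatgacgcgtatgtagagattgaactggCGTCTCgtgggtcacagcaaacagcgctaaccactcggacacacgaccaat
larp-1 intron 5, chrIII:5014021-5014121: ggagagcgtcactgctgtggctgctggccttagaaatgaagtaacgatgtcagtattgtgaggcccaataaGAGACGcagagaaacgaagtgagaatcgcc
C33B4.4 intron 1, chrII:11377008-11377108: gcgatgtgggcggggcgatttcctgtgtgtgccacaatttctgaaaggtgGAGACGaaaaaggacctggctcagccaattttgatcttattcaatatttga
pdl-1 intron 1, chrII:7184042-7184142: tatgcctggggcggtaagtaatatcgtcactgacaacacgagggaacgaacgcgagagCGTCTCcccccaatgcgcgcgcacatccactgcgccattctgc
gei-4 intron 1, chrIII:349822-349922: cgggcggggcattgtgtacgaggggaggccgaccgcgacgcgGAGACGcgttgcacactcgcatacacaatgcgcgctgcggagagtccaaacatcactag
zipt-15 intron 6, chrIV:813515-813615: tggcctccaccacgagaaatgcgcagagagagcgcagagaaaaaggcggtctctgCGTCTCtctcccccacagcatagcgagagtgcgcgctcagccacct

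The second kind is a tandem array, in which a unit of about 19 bp is repeated. The 3 strongest such hosts shown here are printed on the plus strand, 50 bp to each side of the summit, with GCGNCA or its reverse complement in capitals.
B0454.26 intron 4, chrII:3036481-3036581: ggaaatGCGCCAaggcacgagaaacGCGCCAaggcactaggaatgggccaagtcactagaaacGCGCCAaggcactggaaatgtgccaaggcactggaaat
Y51A2D.13 intron 5, chrV:18575382-18575482: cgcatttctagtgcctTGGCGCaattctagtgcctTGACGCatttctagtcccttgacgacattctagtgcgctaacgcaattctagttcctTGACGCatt
nhr-70 intron 8, chrV:18619325-18619425: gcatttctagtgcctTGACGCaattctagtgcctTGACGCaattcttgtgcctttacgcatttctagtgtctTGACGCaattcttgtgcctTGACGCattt

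The third kind is the start of an intronic snoRNA gene beside a member summit, printed along the snoRNA's own strand, with 90 bp upstream of its 5′ end and its first 10 bases. Capitals mark a box B word (GTTCNANNC) in the first 3 and, in the last 3, a 2-word motif (AACNCG, then 5 bases, then TGTC).
T03F7.8 in cutl-18, chrV:11314168-11314267, plus strand: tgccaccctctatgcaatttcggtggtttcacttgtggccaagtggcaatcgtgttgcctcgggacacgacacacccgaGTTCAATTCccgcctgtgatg
Y38F2AR.14 in Y38F2AR.12, chrIV:2408626-2408725, minus strand: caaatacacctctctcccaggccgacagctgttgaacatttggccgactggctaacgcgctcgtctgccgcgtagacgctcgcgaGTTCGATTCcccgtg
C04G6.12 in mpk-2, chrII:5105222-5105321, minus strand: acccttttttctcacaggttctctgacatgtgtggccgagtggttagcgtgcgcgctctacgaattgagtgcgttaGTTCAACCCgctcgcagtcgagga
Y73B6A.14 in Y73B6A.1, chrIV:6664546-6664645, minus strand: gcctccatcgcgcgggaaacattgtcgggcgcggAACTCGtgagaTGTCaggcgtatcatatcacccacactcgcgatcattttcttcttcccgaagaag
ZK994.7 in pxn-1, chrV:8500489-8500588, plus strand: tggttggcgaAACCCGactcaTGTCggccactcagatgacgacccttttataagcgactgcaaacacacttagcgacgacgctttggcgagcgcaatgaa
C08D8.3 in C08D8.1, chrV:8349018-8349117, plus strand: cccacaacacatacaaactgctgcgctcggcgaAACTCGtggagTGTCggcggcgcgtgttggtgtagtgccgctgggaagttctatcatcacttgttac

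The members were weak to moderate peaks. Their pooled signal, the authors' own value for each peak on a scale that is not stated, ran from 93.9 to 707 with a median of 149.5, in a list whose signals ran from 93.6 to 11118. They took ranks 251 to 2455 of the list, with a median rank of 1295. The 296 summits fell into 290 distinct intervals and 265 groups of overlapping intervals, and they had 229 host genes. Of the intervals, 185 were exactly 510 bp wide. Overlapping groups with more than 1 summit numbered 31 and held 62 summits, and neighbouring summits within them were 199 to 337 bp apart with a median of 204 bp. In 26 of the 31 cases the gap was within 10 bp of that median, so such pairs are not independent sites.

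Just inside the limit of 720 stood dlk-1, the gene of a kinase needed for axon regeneration, with a pooled signal of 707, Y73B6A.1 with 705 and pxn-1, a peroxidasin gene, with 656. Just outside it, with the rest of the rule met, stood tars-1 with 754, Y51A2D.13 with 771 and sym-3 with 831. Intronic peaks at or above the limit numbered 13. These were left out by the rule and are named only to show where it falls.

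Each replicate's own list shows how far single members were seen again. From each list, as many of the strongest peaks were taken as the thresholded list holds. Such a peak of replicate 1 overlapped 260 members (87.8%, 83.6 to 91.3%), and one of replicate 2 overlapped 254 (85.8%, 81.3 to 89.6%). Both did so for 224 members (75.7%, 70.4 to 80.5%) and neither for 6. The share seen in both was 72.8% of the 1079 weaker promoter peaks (70.1 to 75.5%) and 67.2% of the 311 weaker intergenic peaks (61.7 to 72.4%), which were taken at the same signal limit and tRNA distance. The pooled list that gave the members was built from the same 2 samples, so these shares are a description. The 72 members not seen in both had a median pooled signal of 105 and a highest of 131.5. Every member was overlapped by some peak of each replicate's whole relaxed list, which holds 26104 peaks in replicate 1 and 27612 in replicate 2.

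The intervals of 7 members overlapped that of a peak at or above the limit, and their replicate values belong in part to that neighbour. One was the member of 491 in Y51A2D.13, which overlapped a peak of 771. Another was the C33B4.4 member printed above, with a pooled signal of 322, which overlapped a peak of 2360. Among the other 289 members, the strongest overlapping peak had a signal of 32.6 to 418 in replicate 1 (median 94.99) and 14.1 to 324 in replicate 2 (median 69.8). It was higher in replicate 1 for 231 of the 289. Its median was also higher in replicate 1 for weaker promoter peaks (90.9 against 68.2) and for weaker intergenic peaks (79.3 against 67.99). Of these 289 members, 217 (75.1%) were seen in both replicates.

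**Figure D1:**
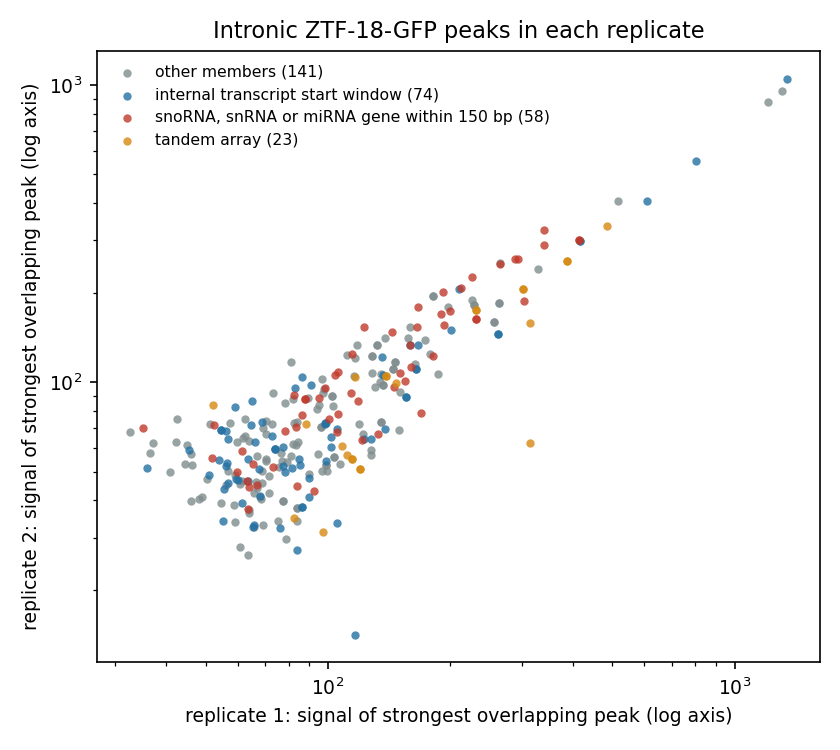
Signal of the strongest overlapping peak in replicate 1 (horizontal, log axis) and replicate 2 (vertical, log axis) for each of the 296 members, 1 point per member, coloured by tandem array (23), small RNA gene (58), internal transcript start window (74) and other (141). Points above 1000 in replicate 1 are members whose interval overlaps a stronger neighbour, and the small RNA and array members reach into the upper range.

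Most of the strongest members were beside small RNA genes or in arrays. Of the 15 of highest signal that were seen in both replicates, counted once per interval, 7 had a snoRNA gene within 150 bp. Y73B6A.1 had a signal of 414 in replicate 1, 302 in replicate 2 and 705 in the pooled list. The pxn-1 member had 340 in replicate 1, 324 in replicate 2 and 656 pooled. The ppat-1 member had 341 in replicate 1, 289 in replicate 2 and 628 pooled. Both replicates placed these 3 among their 301 strongest peaks.

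The other 4 with a snoRNA gene lay in cfim-2, which encodes a subunit of an mRNA 3′ end processing factor, twk-5, a potassium channel gene, cutl-18, a cuticlin-like gene, and C08D8.1. The cfim-2 summit also lay inside an annotated pseudogene of 74 bp and an ncRNA gene. The pooled signals were 556 in cfim-2, 554 in twk-5, 511 in cutl-18 and 490 in C08D8.1. The replicate signals lay between 265 and 303 in replicate 1 and between 188 and 260 in replicate 2. For this quartet, as for the 3 above and for most members, the value in replicate 1 was the higher one.

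Among the remaining strongest members, B0454.26, Y51A2D.13 at 2 intervals and nhr-70, a nuclear hormone receptor gene, held tandem arrays and are described below. The dlk-1 member had a signal of 418 in replicate 1 and 298 in replicate 2 and lay in the window of an internal transcript start. Y69A2AR.1 had 328 in replicate 1 and 241 in replicate 2, and Y73F8A.26 had 265 in replicate 1 and 251 in replicate 2. The member in Y94H6A.3, in an intron of 45 bp, had 1306 in replicate 1 and 957 in replicate 2, against 586 in the pooled list, and its interval overlapped a stronger peak.

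Among the annotated features counted, small RNA genes were the most concentrated in the members. Tandem arrays, described below, were not set against a share of bases. A snoRNA, snRNA or miRNA gene lay within 150 bp of the summit for 58 members (19.6%, 15.2 to 24.6%). Such positions made up 0.304% of the eligible intronic bases, the 30.4 Mb of the genome that meet the positional parts of the rule. SnoRNA genes accounted for 40 members (13.5%, against 0.158% of eligible bases) and snRNA genes for 16 (5.41%, against 0.0636%). MiRNA genes accounted for 2 (0.676%, against 0.0825%). A gene that the annotation calls ncRNA, a mixed class of other non-coding RNAs, was near 71 members (24.0%, against 2.91% of eligible bases). Of these 71, 50 had no snoRNA, snRNA or miRNA gene within 150 bp, and some lay in the arrays described below. Genes of piRNAs, which guard the germline against foreign sequence, were near 1 member (0.338%, against 2.75% of eligible bases). Annotated pseudogenes, with a median length of 73.5 bp, were near 6 members (2.03%, against 0.636% of eligible bases). The tRNA part of the rule used only genes annotated as tRNA, so pseudogenes of any kind could remain.

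**Figure D2:**
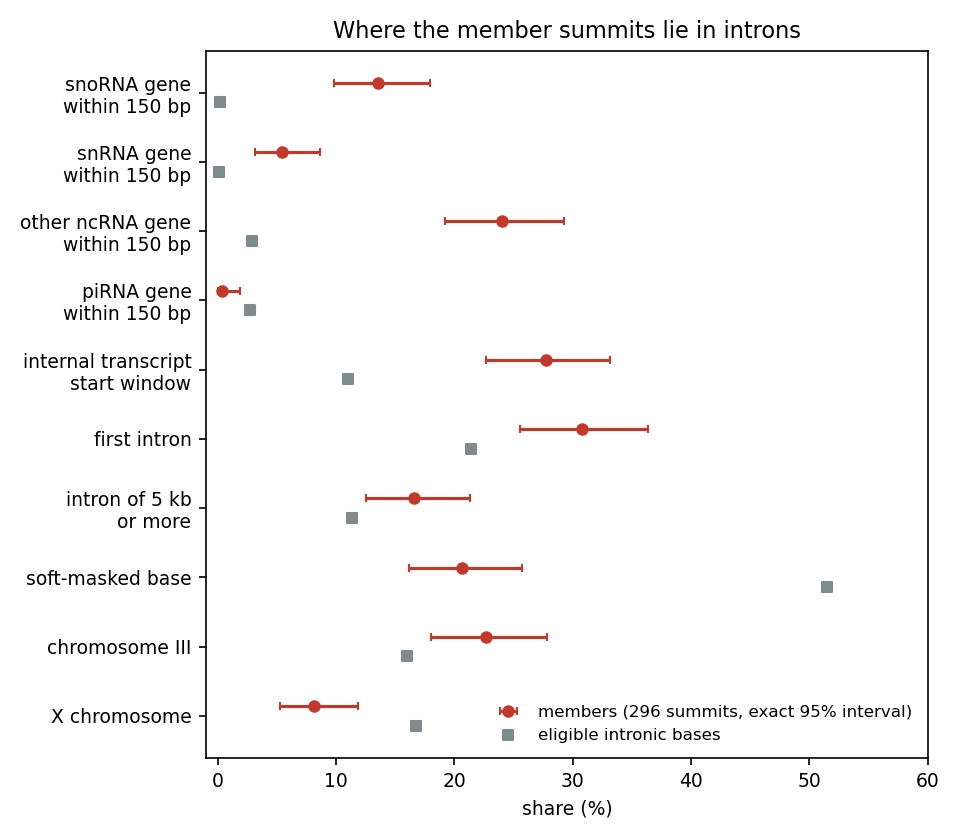
Share of the 296 member summits with each feature (circles, exact 95% intervals) and share of the eligible intronic bases with it (squares), in percent. Members exceed eligible bases for snoRNA, snRNA and other ncRNA genes, internal start windows and first introns, and fall below them for piRNA genes, soft-masked bases and the X chromosome.

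The small RNA share of the members was also above that of the other weaker peaks. It was 19.6% of members, 4.17% of weaker promoter peaks and 11.3% of weaker intergenic peaks. Fisher's exact test, two-sided and adjusted by Benjamini-Hochberg over 10 comparisons, gave an odds ratio of 5.58 (3.69 to 8.42, adjusted p = 8.01e-15) against promoter peaks. Against intergenic peaks the exact test gave 1.91 (1.22 to 3.001, adjusted p = 0.00943). With promoters extended to 2000 bp upstream the comparison with intergenic peaks no longer passed (Fisher's exact test, adjusted p = 0.0535), nor did it for peaks at or above the members' median signal (adjusted p = 0.0545). Overlapping peaks are not independent, which makes these p-values too small.

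Member summits sat at the 5′ ends of the small RNA genes. Over 40 pairs of a summit and a snoRNA gene, the summit lay at a median of -16.5 bp from the snoRNA's 5′ end along its own strand, with a range of -96 to 252 bp, and upstream of it in 26 pairs. Over 16 pairs with an snRNA gene the median was -3.5 bp, with a range of -42 to 214 bp. The snoRNA was on the host's strand in 28 of 40 pairs and the snRNA in 11 of 16. The introns were short, with a median of 460.5 bp for the 58 members beside small RNA genes. The median pooled signal of these 58 was 215, and 52 of them (89.7%) were seen in both replicates.

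**Figure D3:**
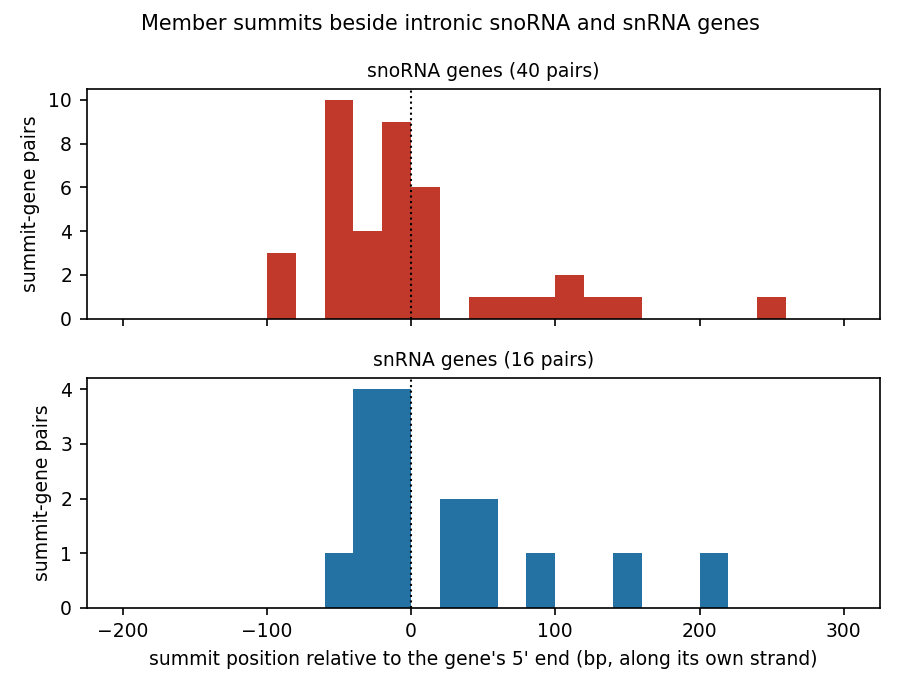
Position of the member summit relative to the 5′ end of the small RNA gene (bp along the gene's strand, negative upstream, bins of 20 bp), for 40 pairs with snoRNA genes (top) and 16 pairs with snRNA genes (bottom). Most summits lie from 60 bp upstream to the 5′ end, with medians of -16.5 bp for snoRNA and -3.5 bp for snRNA genes.

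The snoRNA genes of the 3 strongest such members were Y73B6A.14 in Y73B6A.1, ZK994.7 in pxn-1 and T04A8.17 in ppat-1. The summit lay 16 bp upstream of ZK994.7 and 18 bp upstream of T04A8.17. For Y73B6A.14 the summit was inside the gene, 117 bp after its 5′ end, and a second member with a signal of 168 had its summit 93 bp upstream. They lay in intron 1 of 5 in Y73B6A.1, in intron 17 of 21 in pxn-1, and in intron 1 of 6 in ppat-1, where the snoRNA gene is antisense to its host.

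For snRNA genes the strongest member, in F58G1.7, had a signal of 231 in replicate 1, 163 in replicate 2 and 379 pooled, beside a locus annotated as the snRNA gene sup-6. The next, in Y69A2AR.31, had 200 in replicate 1, 173 in replicate 2 and 367 pooled, beside Y69A2AR.36. The third, in dhc-4, a dynein heavy chain gene, had 189 in replicate 1, 170 in replicate 2 and 352 pooled. Its snRNA locus carries a gene name that the annotation also gives to others. In all 3, as in most members, replicate 1 was higher than replicate 2.

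The 2 members beside miRNA genes were weaker. In B0361.11, the summit lay 20 bp upstream of mir-2214, with a signal of 78.2 in replicate 1, 68.4 in replicate 2 and 148 pooled. In nurf-1, which encodes a subunit of a nucleosome remodelling complex, it lay 130 bp upstream of cel-mir-5595, with 61.6 in replicate 1, 58.4 in replicate 2 and 120 pooled. Both members were seen in each replicate.

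Genes of the SL2 leader RNA, which is trans-spliced onto downstream messages of operons, formed a separate small group, noticed after the values were seen. The glutamate receptor gene glr-2 held 3 members, each beside an sls-2 gene annotated as snRNA: sls-2.16 with a pooled signal of 178, sls-2.5 with 117 and sls-2.18 with 96.5. Another, sls-2.14 in W09D6.5, had 94.9. The summits lay between 26 bp upstream and 24 bp downstream of the 5′ ends. The sls-2.16 and sls-2.5 members were seen in both replicates, and the sls-2.18 and sls-2.14 members were not. These members of glr-2 and W09D6.5 belong to a group that shares at least 60 aligned bases, so they are not independent of each other. Their values are uncertain where reads could be placed at several of these genes.

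Also chosen after the values were seen were the RNA components of 2 ribonucleoprotein machines. The RNase P RNA gene rpr-1, in an intron of ints-8, had its summit 11 bp after the 5′ end, with a signal of 226 in replicate 1, 188 in replicate 2 and 416 pooled. The signal recognition particle RNA gene srpr-2.2, in an intron of the kinesin gene klp-6, had 2 members with pooled signals of 440 and 224. Its paralogue srpr-1.2, in an intron of the choline kinase gene ckb-2, had 2 members with 199 and 157. In klp-6 and in ckb-2 the 2 intervals overlapped each other and had the same replicate values, so they are not 2 separate sites. The windows of both paralogues share at least 60 aligned bases, so values of the pair are uncertain where reads could be placed at either.

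The upstream sequences of these genes held recurring words. From 120 bp upstream to 25 bp downstream of the 5′ end, along the gene's strand, the 2-word motif was found in 14 of the 39 snoRNA genes near members (35.9%), against 35 of all 346 annotated snoRNA genes (10.1%). The box B word was found in 9 of the 39 (23.1%), against 39 of 346 (11.3%). Either was found in 23 of the 39 (59.0%), against 74 of 346 (21.4%), and no gene of the 39 held both. Among 14 snRNA genes near members, 8 held the 2-word motif (57.1%), against 30 of all 129 (23.3%), and none held the box B word, against 14 of 129 (10.9%). The genes near members are part of the annotated totals.

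Both motifs kept a narrow position. The middle of the 2-word motif lay at a median of -51 bp from the 5′ end over 15 summit-snoRNA pairs (-73 to -47 bp) and at -52 bp over 9 summit-snRNA pairs (-60 to -49 bp). The box B word lay at a median of -8 bp from the annotated 5′ end of snoRNA genes over 9 pairs (-16 to -1 bp), and the summit was within 50 bp of it in all 9. The position of the summit relative to the 2-word motif was more spread, with a median of 35 bp downstream over the snoRNA pairs and a range of -44 to 202 bp.

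In windows of 301 bp centred on summits and read on both strands, the 2-word motif occurred in 25 of 296 members (8.45%), 30 of 1079 weaker promoter peaks (2.78%) and 13 of 311 weaker intergenic peaks (4.18%). It occurred in 340 of 57351 windows of eligible intronic bases (0.593%). Of the 25 members, 21 were beside a snoRNA, snRNA or miRNA gene and 3 beside another ncRNA gene. The box B word is short and common. It occurred in 36 members (12.2%), 8.62% of weaker promoter peaks, 16.1% of weaker intergenic peaks and 8.55% of the eligible windows. A match to such letters is a description and not evidence of a factor's site.

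A separate set of members lay in tandem arrays. The aligned sequence of the strongest peaks is a matrix of 30 positions built from 95 peaks with a signal of at least 720 on chromosomes I, III and V that hold the word GCGCCA. An array was taken as 4 or more matches on the same strand spaced by 19 bp, 38 bp or 57 bp, a rule set after the spacing had been seen. By this rule, 23 members (7.77%, 4.99 to 11.4%) in 12 host genes had a summit in or within 50 bp of an array. The same held for 3 of 1079 weaker promoter peaks (0.278%), 0 of 311 weaker intergenic peaks (an interval of up to 1.18%) and 1 of the 237 strongest peaks (0.422%).

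**Figure D4:**
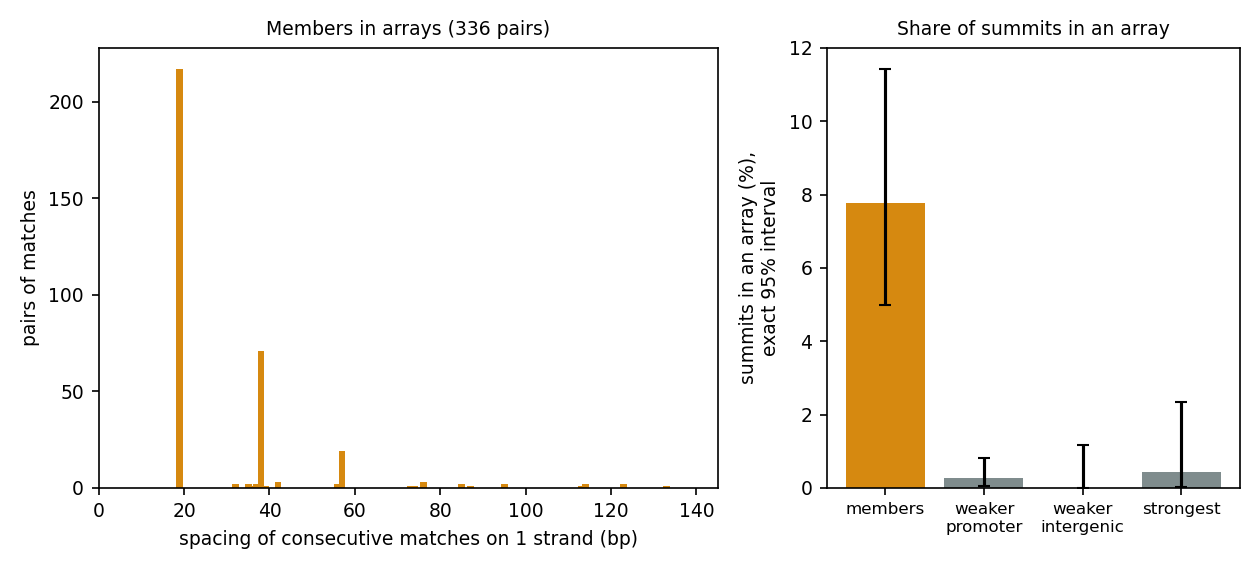
Left, spacing in bp of consecutive same-strand matches to the aligned sequence within 300 bp of the 23 member summits in arrays (336 pairs). Right, share of summits in an array for members, weaker promoter, weaker intergenic and strongest peaks (percent, exact 95% intervals). Spacing peaks at 19 bp (217 pairs), 38 bp (71) and 57 bp (19), the spacings that the array rule required, and members stand at 7.77%.

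Within 300 bp of their summits, these 23 members had 7 to 23 matches to the aligned sequence, with a median of 16. By comparison, 196 of the other 273 members had no match at that distance. Members were split by such matches, so much of this contrast follows from the array rule. Of 336 pairs of consecutive matches in the arrays, 217 were 19 bp apart, 71 were 38 bp apart and 19 were 57 bp apart, which together is 91.4%. The array rule itself required runs with these spacings, so this share is largely fixed by the rule. The 3 array sequences printed above show the unit of about 19 bp, with copies that differ by single bases.

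The arrays clustered near the right end of chromosome V, where 15 of the 23 members lay between 18.2 and 19.8 Mb of a chromosome of 20.9 Mb. On chromosome II, 4 more lay in the nearby genes B0454.26 and B0454.5. The strongest was in intron 4 of B0454.26, with a signal of 386 in replicate 1, 256 in replicate 2 and 633 pooled. In Y51A2D.13, the 2 stronger array members had pooled signals of 496 and 491. The member with 491 shared its interval with the peak of 771 just outside the limit, so it is not an independent site. In nhr-70, the stronger one had 315 in replicate 1, 158 in replicate 2 and 458 pooled.

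Weaker array members lay in nceh-1 with a pooled signal of 221, Y39B6A.7 with 221, Y43F8A.2 with 166 for its strongest, Y69H2.10 with 130 and C31G12.4 with 123. Pooled signals of the 23 ran from 95.8 to 633 with a median of 166, and 20 of the 23 were seen in both replicates. None had a snoRNA, snRNA or miRNA gene within 150 bp.

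Read from the genome, most arrays were overlapped by a peak. The nuclear genome held 25 arrays by the rule above, 20 of them mostly in eligible intronic bases. Of these 20, 17 (85.0%) were overlapped by a member, and 19 by a peak of the pooled relaxed list. The 5 arrays elsewhere were all overlapped by a thresholded peak. Among the intronic arrays with 10 or more matches, 12 of 13 were overlapped by a thresholded peak, and of those with 4 or 5 matches 2 of 4. How reads in repeats were placed is not given in the sources used here, and its part in these signals was not tested.

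Across all members, the aligned sequence was more frequent at summits than beside them. A match lay within 50 bp of 64 of the 296 summits (21.6%), against 35 (11.8%) in the flanks at 250 to 300 bp on both sides of the same regions. The exact McNemar test, two-sided, gave p = 8.17e-05, with 41 regions matching at the summit alone and 12 in the flanks alone. Leaving out the 23 array members, all of which matched at the summit, 41 of 273 matched at the summit and 19 in the flanks (exact McNemar test, p = 0.00164). For scale, 93 of the 98 strongest peaks on chromosomes II, IV and X matched at the summit and 2 in the flanks.

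Compared with the other weaker peaks, the aligned sequence was present at 21.6% of member summits, 7.32% of promoter summits and 13.8% of intergenic summits. Fisher's exact test gave an odds ratio of 3.49 against promoter peaks (2.44 to 4.99, adjusted p = 2.54e-10). Against intergenic peaks the exact test gave 1.71 (1.12 to 2.61, adjusted p = 0.0176). Without peaks in arrays the difference from intergenic peaks did not pass, at 15.02% of members and 13.8% of intergenic peaks (Fisher's exact test, odds ratio 1.10, adjusted p = 0.904). It did not pass in the exact test either with 1 summit per overlapping group (adjusted p = 0.0570) or for peaks at or above the members' median signal (adjusted p = 0.673).

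Member summits were rich in G and C. The GC share within 50 bp of the summit was 47.6 ± 9.33% (SD, n = 296), against 39.3 ± 8.83% in the flanks of the same regions, and it was higher at the summit in 221 of 296 (exact sign test, two-sided, p = 7.27e-18). Weaker promoter peaks had 45.3% at summits and 35.7% in flanks, and weaker intergenic peaks had 47.3% at summits and 35.02% in flanks. A GC share of 40% or more was found at 81.1% of members, 72.0% of promoter peaks (Fisher's exact test, odds ratio 1.66, 1.20 to 2.28, adjusted p = 0.00411) and 80.4% of intergenic peaks (odds ratio 1.05, 0.699 to 1.56, adjusted p = 0.838). The difference from promoter peaks did not pass for peaks at or above the members' median signal (Fisher's exact test, adjusted p = 0.0986).

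**Figure D5:**
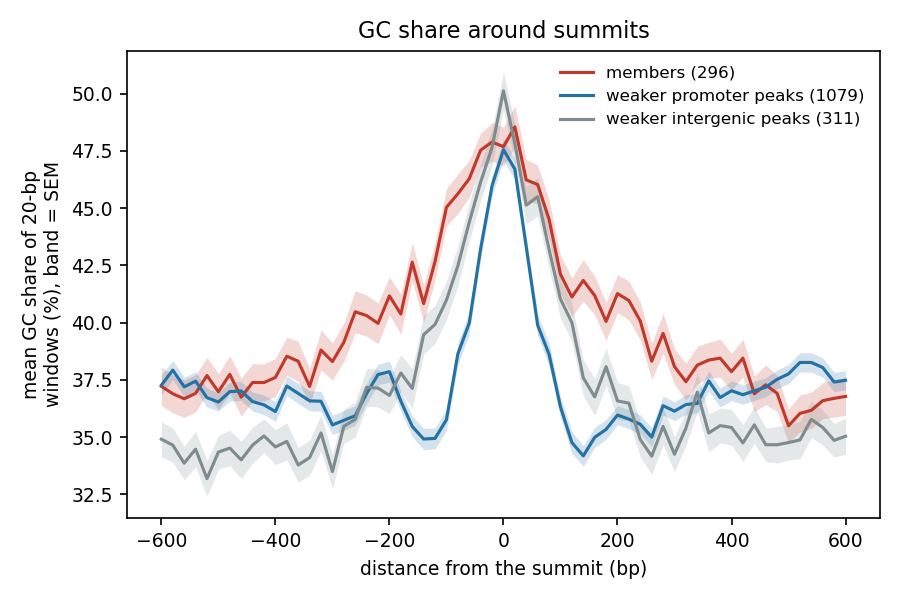
Mean GC share (percent) of 20-bp windows by distance from the summit (bp) for the 296 members, 1079 weaker promoter peaks and 311 weaker intergenic peaks, with the standard error of the mean as a band. All 3 sets peak within 20 bp of the summit, and the members' curve falls off more slowly to both sides than that of promoter peaks.

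Short words were compared between summits and flanks in the same way. Of the 2080 strand-collapsed words of 6 bases, 33 were called more often at member summits (1.59% of words tested) and 24 less often (1.15%), by exact McNemar tests with Benjamini-Hochberg adjustment over all words. GC-rich words made up much of the first group: 17 of the 33 had at least 4 G or C letters, while 19 of the 24 called less often had at most 1. The GC share of summits and flanks differs by 8.26 percentage points on average, and its part in the word counts was not tested.

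The leading word was CGTCTC with its reverse complement GAGACG, present at 47 summits (15.9%) and in the flanks of 10 members (adjusted p = 0.000252, exact McNemar test). It was at 13.5% of weaker promoter summits and 17.4% of weaker intergenic summits. GACGCA was at 47 summits and in 13 flanks (adjusted p = 0.000807, exact McNemar test). It was still called without the array members, at 33 summits and in 6 flanks (exact McNemar test, adjusted p = 0.00396), and not with 1 member per group that shares sequence, at 26 summits and in 6 flanks (adjusted p = 0.0506). GAGAGA was at 56 summits and in 20 flanks (adjusted p = 0.00251, exact McNemar test), and was no longer called among members seen in both replicates (adjusted p = 0.111) or within 25 bp of the summit (adjusted p = 0.161).

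CACTAG was at 37 member summits (12.5%) and in 11 flanks (adjusted p = 0.000807, exact McNemar test), against 1.95% of promoter summits and 5.14% of intergenic summits. Of the 37 summits, 19 were in arrays. It was still called without the array members, at 18 summits and in 2 flanks (exact McNemar test, adjusted p = 0.0299), and not with 1 member per group that shares sequence, at 12 summits and in 2 flanks (adjusted p = 0.161). Within 25 bp of the summit it was not called either (exact McNemar test, adjusted p = 0.0575). GCGCCA, the core of the aligned sequence, was at 49 summits and in 27 flanks (adjusted p = 0.0391, exact McNemar test). Among words called less often, TAAAAA was at 45 summits and in 89 flanks.

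Members shared sequence with each other more widely than in the arrays. By alignment of the 301 bp around each summit, 85 members fell into 15 groups that share at least 60 aligned bases at separate places. The largest held 31 members, 23 of them in arrays. The next held 9 members in 5 hosts, among them Y69A2AR.1, the autophagy gene atg-5 and the F-box gene fbxa-19. One group of 5 lay at snRNA loci, including those in dhc-4 and mpc-1. Members of 1 group are not independent of each other.

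Internal starts of the host gene marked a further set. The rule kept out a gene's outermost 5′ end alone, so starts of shorter transcripts could remain. The window of such a start, from 1000 bp upstream to 200 bp downstream, held 82 members (27.7%, 22.7 to 33.2%), against 11.04% of eligible bases. In each of the 82 it was a start of the host itself, and the summit lay upstream of it in 78, with a median offset of -328 bp. The window reaches farther upstream than downstream, and the rule removed summits in exons, so upstream positions were favoured in advance. The upstream share of the eligible window bases was not counted. Members in such windows without a small RNA gene numbered 76, with a median signal of 128, and 50 (65.8%) were seen in both replicates. First introns held 36 of these 76 (47.4%).

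First introns held 91 of all 296 members (30.7%, 25.5 to 36.3%), against 21.4% of eligible bases. Among members at or above the median signal the share in first introns was 23.0%. The host introns had a median length of 1020 bp, against 951 bp for an eligible base. Introns of 5000 bp or more held 49 members (16.6%, 12.5 to 21.3%), against 11.4% of eligible bases. Introns under 500 bp held 65 (21.96%, 17.4 to 27.1%), against 28.1%. The summits lay at a median of 2314 bp from the host's 5′ end, against 2667 bp for eligible bases.

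By chromosome, X held 24 members (8.11%, 5.26 to 11.8%) but 16.7% of eligible bases, and chromosome III held 67 (22.6%, 17.99 to 27.8%) but 15.97%. The X share was 8.90% for weaker promoter peaks, and that difference did not pass (Fisher's exact test, odds ratio 0.916, 0.577 to 1.46, adjusted p = 0.809). It was below that of weaker intergenic peaks (15.4%, odds ratio 0.488, 0.292 to 0.817, adjusted p = 0.00943, Fisher's exact test). The outer 50% of the autosomes held 52.2% of autosomal members, 32.96% of promoter peaks (Fisher's exact test, odds ratio 2.22, 1.69 to 2.91, adjusted p = 3.79e-08) and 40.7% of intergenic peaks (odds ratio 1.59, 1.13 to 2.24, adjusted p = 0.0132). The eligible bases themselves were 57.3% outer. Shares of promoter and intergenic bases on X or in the outer autosomes were not counted. These tests therefore cannot separate the peaks from where introns, promoters and intergenic bases lie. Without peaks in arrays the outer share was 47.8% of members, and the comparison with intergenic peaks did not pass (Fisher's exact test, adjusted p = 0.157). It did not pass in the exact test either at or above the members' median signal (adjusted p = 0.0545).

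Soft-masked bases, which the reference marks as repeated or of low complexity, lay at 61 member summits (20.6%, 16.1 to 25.7%), against 51.5% of eligible bases.

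Of the 229 hosts, 184 had a single member interval, 35 had 2, and 10 had 3 or more. The phosphatase subunit gene ppfr-1 had 5, with pooled signals of 97.1 to 394 and summits between positions 9373271 and 9386032 of chromosome I. Y51A2D.13, Y69A2AR.31, Y43F8A.2 and let-526, which encodes a subunit of a SWI/SNF chromatin remodelling complex, had 4 each. In let-526 these formed 2 overlapping pairs, with pooled signals of 245 and 114 in the first and 236 and 94.6 in the second. Some intervals also overlapped each other in ppfr-1, Y51A2D.13 and Y43F8A.2, so these counts exceed the number of separate sites.

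The 5 hosts with 3 intervals were zfp-1, a chromatin regulator gene, hrpu-1, an hnRNP U gene, daf-5, a gene of the dauer TGF-beta pathway, pqn-41 and glr-2. Their strongest members had pooled signals of 260 in zfp-1, 255 in hrpu-1, 216 in daf-5, 197 in pqn-41 and 178 in glr-2. In zfp-1, hrpu-1 and pqn-41 some of the intervals overlapped each other, so they are not 3 separate sites. The daf-5 members were spread over an intron of 14446 bp. All 3 were seen in both replicates, and in hrpu-1 this held for 1 of 3.

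Gene lists were counted by host. Signalling kinases, receptors and G proteins had 11 host genes with 13 members (4.39%, 2.36 to 7.39%), and 3.11% of eligible bases. The strongest were mpk-2, a MAP kinase gene, with a pooled signal of 317, egl-4, a cGMP-dependent kinase gene, with 304, and mom-1, a gene of Wnt secretion, with 268. Nuclear hormone receptors had 5 host genes with 6 members (2.03% and 1.48% of eligible bases), of which 2 were the array of nhr-70 and another lay in daf-12, a steroid receptor gene, with 159. RNA binding and germline regulators had 3 host genes with 6 members (2.03% and 0.633% of eligible bases), led by larp-1 with 369. Intervals overlapped each other in larp-1 and in hrpu-1, so these 6 members are fewer separate sites.

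Chromatin regulators had 2 host genes, mix-1 and zfp-1, with 4 members (1.35% and 1.16% of eligible bases). The mix-1 member, in the gene of a condensin subunit, had a pooled signal of 279 beside the snoRNA gene M106.6. Ion channels and receptors had 3 host genes with 5 members (1.69% and 3.35% of eligible bases). Among them, inx-11, an innexin gene, had 443 beside the snoRNA gene W04D2.7. Synaptic genes had 2 members (0.676% and 1.15% of eligible bases), in the kinesin gene unc-104 with 233 and the neuropeptide gene nlp-40 with 109. Muscle genes had 1 (0.338% and 0.689% of eligible bases), in the spectrin gene unc-70 with 215, beside the snoRNA gene K11C4.6.

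Homeobox genes, axon guidance, adhesion and matrix genes, and ribosomal protein genes held no member. Each of these counts allows a share of up to 1.24% of the members. Their shares of the eligible bases were 0.760% for homeobox genes, 2.19% for axon guidance, adhesion and matrix genes, and 0.0152% for ribosomal protein genes.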

How the data were processed

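NarrowPeak lists were deposited by the authors for each of the 2 samples and for both together. The signal of a peak is the authors' deposited value on an unstated scale, and the −log10 q the authors deposited was 2.78 for every thresholded peak. Caller, aligner and threshold: not given in the sources used here. Rank by rank, the thresholded ce11 list equals the strongest pooled peaks in equal number, so peaks were pooled over both samples. The ce10 lists were not used here.

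Gene models were Ensembl release 115 of WBcel235, and sequences came from RefSeq's copy of the same assembly. Hosts are the shortest protein-coding gene around a summit, and introns the gaps between merged exons. Words, GC and the aligned sequence were compared within 50 bp of the summit and at 250 to 300 bp, with thresholds of 0.05. Odds ratios had 0.5 added to each cell. Intervals are exact Clopper-Pearson 95% intervals, except normal ones for odds ratios, and cover counting error only. Shared sequence was found with BLAST 2.17.0 at an E value of 1e-05. Python 3.11.15, numpy 2.4.6, pandas 2.3.3 and scipy 1.17.1 were used, and the word test was tested on simulated data. Alternatives covered promoter windows, tRNA distance, flanks, stricter lists, overlapping peaks and single replicates.

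The members and all lists were chosen with earlier results of these data known. Named hosts are the 15 strongest seen in both replicates, those with 3 or more intervals, the 3 strongest per small RNA class and per gene list, 3 on each side of the signal limit, and the 6 printed with the leading word. Other hosts, named in the accounts of other printed sequences, arrays, sequence groups, SL2, RNase P and signal recognition particle RNA genes and small RNA neighbours, were chosen after their values were seen. Arrays, upstream motifs and sequence groups were defined after the data were seen and have counts only.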

Additional observations from a re-analysis of the deposited data

How the results depend on the processing

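The number of called words depended most on the settings. Words called more often numbered 33, and 109 with flanks at 400 to 450 bp, 5 within 25 bp, 4 among members seen in both replicates and 4 for words of 7 bases. Words called less often numbered 24, and under the same settings 76, 0, 2 and 0. By the exact McNemar test without adjustment, 63 words within 25 bp and 151 words of 7 bases were less often at summits at a p under 0.05. With summits from a single replicate, the lowest and highest counts were 86 and 86 more often, and 32 and 50 less often. Chosen after seeing the data, 1 member per group that shares sequence gave 9 more often and 6 less often, and leaving out members near snoRNA, snRNA or miRNA genes gave 12 and 4. Both of these test fewer members. The comparisons of summits with flanks for GC and the aligned sequence kept their direction and side of the threshold under all alternatives run, with aligned differences of 6.42 to 16.6 percentage points.

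Requiring a signal at or above the members' median left 148 members, of which 23.0% were in first introns, 20.9% in internal start windows and 29.1% beside small RNA genes. With every transcript 5′ end as a promoter, the share in internal start windows is 0 by construction. Overlap in both replicates was 66.9% when the replicate summit had to lie within 100 bp and 100% with the whole relaxed lists. Odds ratios against intergenic peaks that no longer passed were, for small RNA genes, 1.71 with promoters of 2000 bp (Fisher's exact test, adjusted p = 0.0535) and 1.88 at or above the median signal. At or above the median signal they were also 1.83 for outer autosomes and 1.17 for the aligned sequence. The aligned sequence had 1.58 with 1 summit per overlapping group, and 1.10 without peaks in arrays, where outer autosomes had 1.33. The GC share against promoter peaks had 1.55 at or above the median signal. The cause was not tested. No paired analysis was possible because there is a single group. Read depth is unknown, and precision is limited by 2 samples.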
